A study of Homo sapiens with 40 samples.

Results

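The ankyrin and neuronal adhesion genes were examined as a set of 7 long genes with several start sites each, namely ANK2, ANK3, NRXN3, NLGN1, NCAM1, CADM1 and CNTNAP2. Their members were all peaks of the H3K27ac and CTCF comparisons that lay within 2 kb of a GENCODE 44 start site of the gene or inside the gene body. By this rule 106 of 51489 H3K27ac peaks and 96 of 51457 CTCF peaks belonged to the set.

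The material was EndoC-βH3, a line of human beta cells from the pancreas with an immortalizing transgene which its own CreER recombinase can cut out. Senescent cells had received 4-hydroxytamoxifen (4-OHT), the drug that activates CreER, for 3 weeks, and non-senescent control cells were of the same line and genotype (labelled WT) without the drug. H3K27ac and CTCF were each measured in 3 senescent and 3 non-senescent libraries by ChIP-seq. All results therefore concern a single transformed line, and the effects of senescence, of the drug and of losing the transgene cannot be told apart. For each peak the tables give a mean normalised read count over the libraries and a log2 fold change (senescent over non-senescent) with its standard error (SE). Values and depths of single libraries were not analysed here, and nothing says that the libraries came from separate cultures, so the SE may hold technical spread alone. A peak was called gained or lost in senescent cells at a fold change above 1.5 with a Benjamini-Hochberg adjusted p of the Wald test under 0.05 for H3K27ac and under 0.2 for CTCF.

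H3K27ac is an acetylation of histone H3 that marks active promoters and enhancers, and CTCF is a zinc-finger protein that binds DNA at insulators and loop anchors. ANK2 (ankyrin-B) and ANK3 (ankyrin-G) are adaptors that tie membrane proteins to the spectrin skeleton. NRXN3 is a neurexin, a receptor at the presynaptic membrane, and NLGN1 is a neuroligin, its ligand on the opposite cell. NCAM1 and CADM1 are adhesion molecules of the immunoglobulin superfamily, and CNTNAP2 (Caspr2) is a relative of the neurexins that partners contactins in axons. Beta cells share much of this secretory and adhesion machinery with neurons. Long genes of this kind use alternative start sites spread over long stretches of the genome, so that each start site has to be read by itself.

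The 7 genes hold 262 transcripts with 192 start sites. Start sites whose windows overlapped were joined, which left 73 start-site groups. An H3K27ac peak lay at 22 of these groups, a CTCF peak at 14, both at 6 and neither at 43. The start site of the canonical transcript carried H3K27ac in 3 of the 7 genes, which were NCAM1, CADM1 and CNTNAP2. In ANK2, ANK3 and NRXN3 the H3K27ac peaks were at other start sites, and NLGN1 had none at any of its 10 start sites.

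To show how unlike the start sites are, the 120 bases before several of them are given, 5′ to 3′ on the strand of the gene, with each CG dinucleotide in capitals. They come from the RefSeq promoter table (GRCh38), in which 5 of the 7 genes matched, and all were identical to the hg38 genome. Where the bases next to the start are transcribed as a leader by another transcript, the stretch was moved upstream until it was free of untranslated sequence. The 6 chosen starts carry the H3K27ac or CTCF results described below. The first 3 are ANK2 starts, and their strongest H3K27ac peaks within 2 kb were lost, nearly level and gained, in that order. A weaker peak that was lost is also in reach of the second start. The following pair are the CpG-rich and the internal start of ANK3, and the last is the internal NRXN3 start.
ANK2 start 112818105, chr4:112817912-112818031, plus strand: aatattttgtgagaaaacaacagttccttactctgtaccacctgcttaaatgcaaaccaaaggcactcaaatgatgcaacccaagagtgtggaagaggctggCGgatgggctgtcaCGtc
ANK2 start 113145619, chr4:113145499-113145618, plus strand: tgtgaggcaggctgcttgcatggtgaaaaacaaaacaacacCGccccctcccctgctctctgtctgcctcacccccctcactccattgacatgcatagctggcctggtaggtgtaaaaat
ANK2 start 113335964, chr4:113335844-113335963, plus strand: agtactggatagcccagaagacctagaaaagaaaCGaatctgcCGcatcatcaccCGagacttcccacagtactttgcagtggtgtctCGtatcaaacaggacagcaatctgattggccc
ANK3 start 60733528, chr10:60733529-60733648, minus strand: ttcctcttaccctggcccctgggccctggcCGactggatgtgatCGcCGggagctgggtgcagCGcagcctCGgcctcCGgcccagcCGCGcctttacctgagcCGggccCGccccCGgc
ANK3 start 60572956, chr10:60572957-60573076, minus strand: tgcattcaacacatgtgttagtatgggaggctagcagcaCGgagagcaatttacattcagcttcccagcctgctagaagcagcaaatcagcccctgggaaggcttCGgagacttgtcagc
NRXN3 start 79279380, chr14:79279219-79279338, plus strand: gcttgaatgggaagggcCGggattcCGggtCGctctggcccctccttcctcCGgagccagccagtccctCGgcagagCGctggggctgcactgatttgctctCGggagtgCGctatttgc
The GC content of these stretches was 45.8%, 54.2% and 49.2% for the ANK2 starts, 75.0% and 51.7% for the ANK3 starts and 65.8% for the NRXN3 start. They hold 2, 1, 4, 11, 2 and 8 CG dinucleotides, respectively. Over all 35116 RefSeq promoters the 120 bases before the start had a median GC content of 60.0% and a median of 6 CG dinucleotides. The outermost ANK3 start is thus richer in CG than the median promoter, and the 3 ANK2 starts are poorer. No TATAA was found on the gene's strand in any of the 6 stretches, against 7.50% of all RefSeq promoters with one in this window. At so low a share, its absence from 6 stretches says little. The first ANK2 stretch ends 73 bases before its start and the NRXN3 stretch 41, so a TATAA nearer these starts would not be seen.

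Of the 23 H3K27ac peaks at start sites, 5 were gained (21.7%) and 6 were lost (26.1%), and 12 had a log2 fold change below 0. Among peaks at start sites of all genes, 6.53% were gained and 11.0% were lost. Both shares of the set were above this background, and neither was tested. Of the 23 peaks, 16 overlapped no enhancer that the authors list, and of these 16, 2 were gained and 3 were lost. The remaining calls lay at peaks that overlap a listed enhancer, so they need not be changes of promoters. Of the 83 H3K27ac peaks in the gene bodies, 5 were gained (6.02%) and 16 were lost (19.3%). The background in the bodies of protein-coding genes of 300 kb or more was 10.9% gained and 14.2% lost. The median log2 fold change was -0.04 at start sites and -0.01 in gene bodies, near the 0.01 of all H3K27ac peaks. The genes differed in direction, since the called peaks of NRXN3 and NCAM1 were all losses, those of ANK3 were all gains, and CNTNAP2 had 10 losses and 1 gain.

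**Figure D1:**
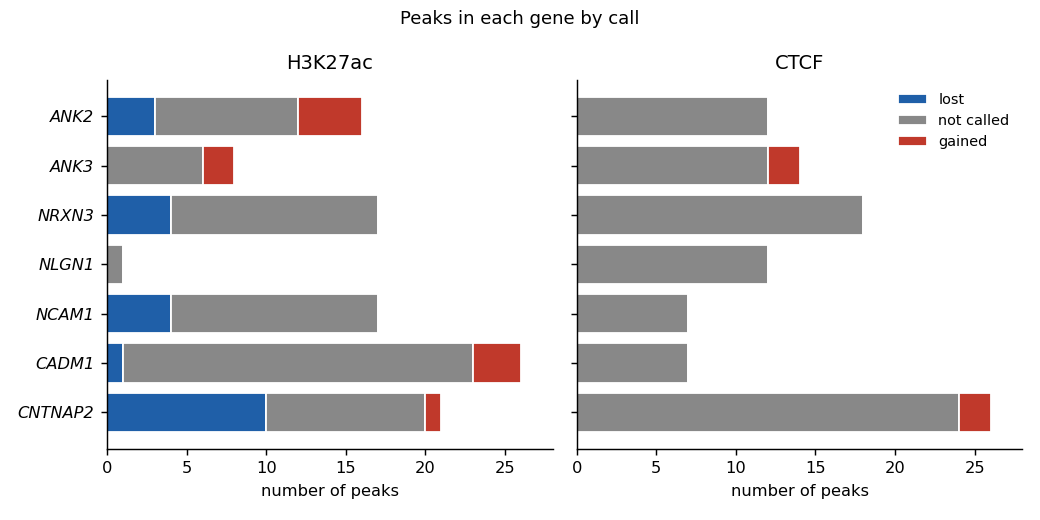
Number of H3K27ac peaks (left) and CTCF peaks (right) in each of the 7 genes, start sites and gene body together, split into lost (blue), not called (grey) and gained (red) in senescent cells. CNTNAP2 holds 10 of the 22 lost H3K27ac peaks, and the 4 called CTCF peaks are gains in ANK3 and CNTNAP2.

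**Figure D2:**
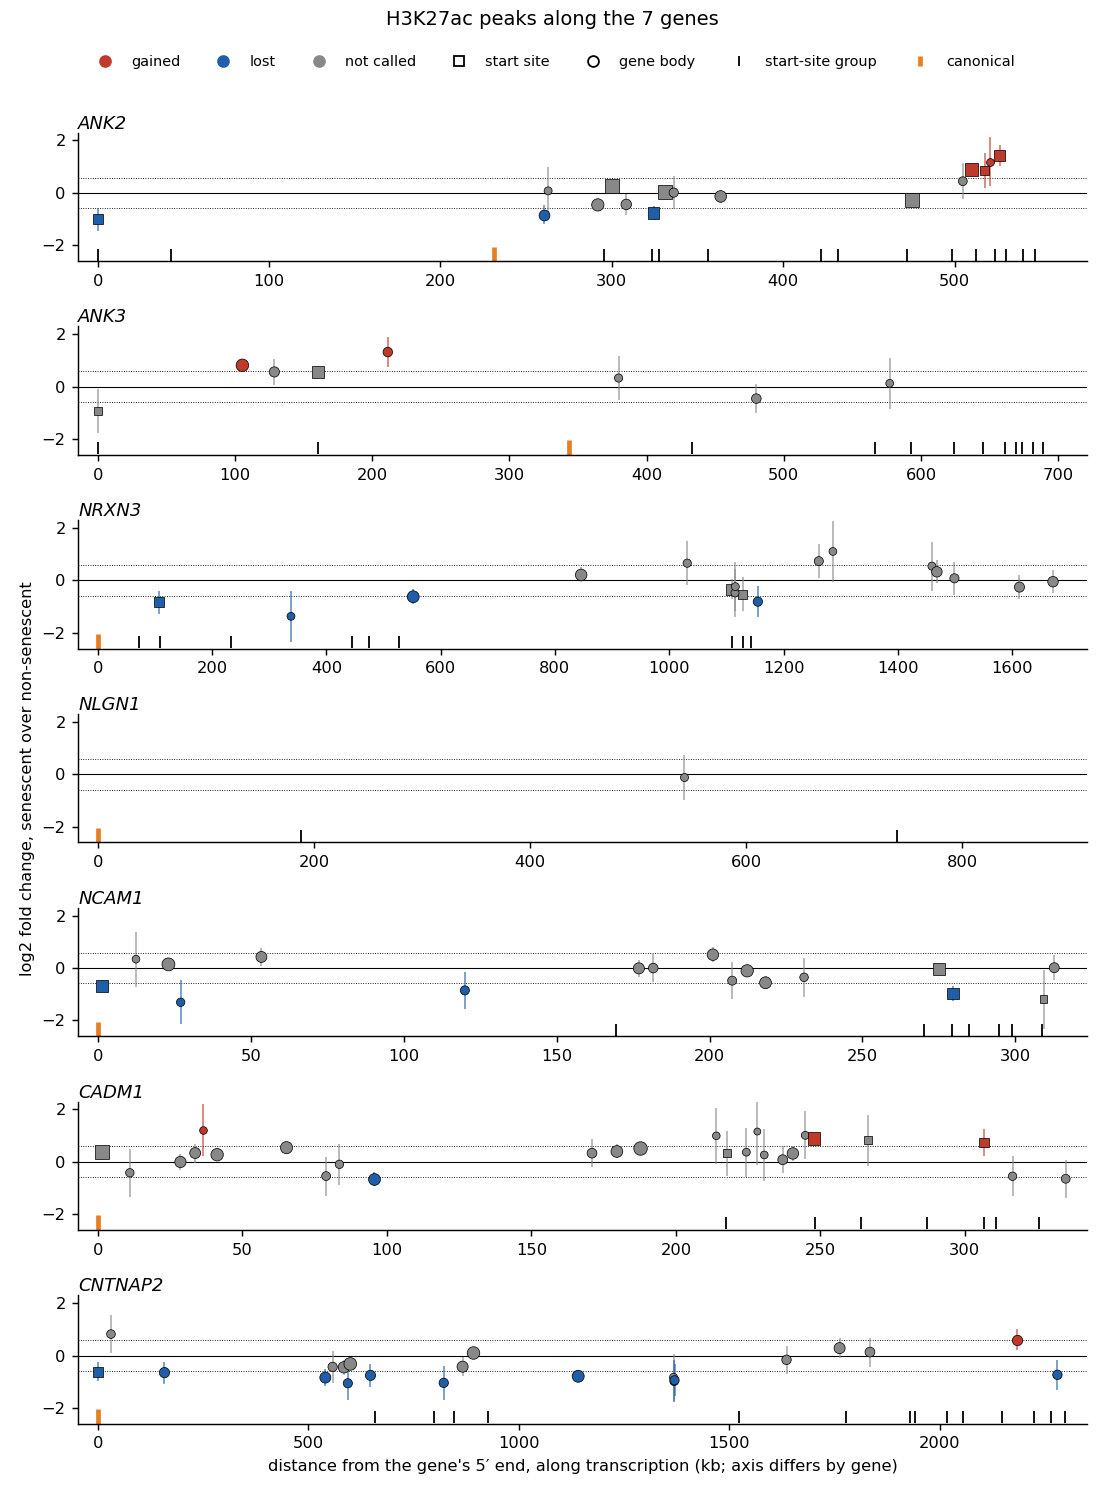
Log2 fold change of every H3K27ac peak (senescent over non-senescent, bars 95% interval) against distance from the gene's 5′ end in kb, in the direction of transcription. Squares are peaks at start sites, circles are gene-body peaks, larger symbols have higher mean counts, dotted lines mark a 1.5-fold change and ticks at the foot mark start-site groups (orange, canonical start). The 4 gained ANK2 peaks sit at its 3′ end, and most CNTNAP2 peaks lie below 0.

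ANK2 changed in opposite directions at the ends of its annotated gene span. A further start from the RefSeq table lies upstream of this span. The H3K27ac peak within 2 kb of that start was nearly level, with a log2 fold change of -0.07 ± 0.23, and was not called. The gene spans chr4:112818032-113384221 on the plus strand, 566.2 kb, with 71 start sites in 16 groups, 7 of them with H3K27ac. The outermost start sites of this span precede 53 of the 129 transcripts. The peak over them (chr4:112817498-112819020, mean count 85.7) was lost, with a log2 fold change of -1.0 ± 0.22 (SE; adjusted p = 4.69e-05). Senescent cells had 0.499 times the signal there, with a 95% interval of 0.368 to 0.676. The canonical start, 231.5 kb downstream, had no peak of either kind.

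The 3 strongest ANK2 peaks lay at internal start sites and moved little. The one at the start printed second above (chr4:113144821-113153648), in intron 1 of the canonical transcript, had a mean count of 2417, or 274 counts per kb of peak, and a log2 fold change of 0.04 ± 0.07. The peak at 300 kb (chr4:113114401-113121513, mean count 1592) had 0.26 ± 0.07 and the peak touching exon 21 (chr4:113289640-113296251, mean count 1904) had -0.27 ± 0.08. Both had adjusted p under the threshold (5.95e-04 and 0.00296) with folds of 1.20 and 0.827, inside the fold limit. Beside the strongest peak, a smaller one at 324 kb (chr4:113140979-113143678, mean count 234) that touches both neighbouring start-site groups was lost (-0.77 ± 0.13, adjusted p = 1.10e-07). Of the gene-body peaks, chr4:113077366-113079172 in intron 1 was lost as well (-0.83 ± 0.18), while the one with the highest count (chr4:113108466-113111160, mean count 407) had -0.46 ± 0.12, a fold of 0.728.

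The 4 gained ANK2 peaks were its most 3′ ones, and the first of them lies 58.3 kb before the end of the gene. The peak next to it on the 5′ side (chr4:113322473-113323283, mean count 31.7) had 0.45 ± 0.36 and was not called, so the length of this stretch is set by the calls. The strongest of them (chr4:113325941-113329543, mean count 702, intron 26) had a log2 fold change of 0.91 ± 0.10, which is 1.88-fold (95% interval 1.65 to 2.14; adjusted p = 3.01e-19). The peak in intron 34 (chr4:113343358-113345351, mean count 125) had 1.43 ± 0.21, a 2.70-fold rise. The peak just upstream of the last ANK2 start printed above touches exon 30 (chr4:113335090-113335940, mean count 40.1) and had 0.85 ± 0.34 with an adjusted p of 0.0337. A gene-body peak touching exon 32 (chr4:113338614-113339251) had a mean count of 17.4 and 1.19 ± 0.48, so that its fold interval was wide, from 1.19 to 4.37. The intervals of the outermost start of the annotated span and of the intron 26 peak do not overlap. The difference between these peaks was not tested.

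**Figure D3:**
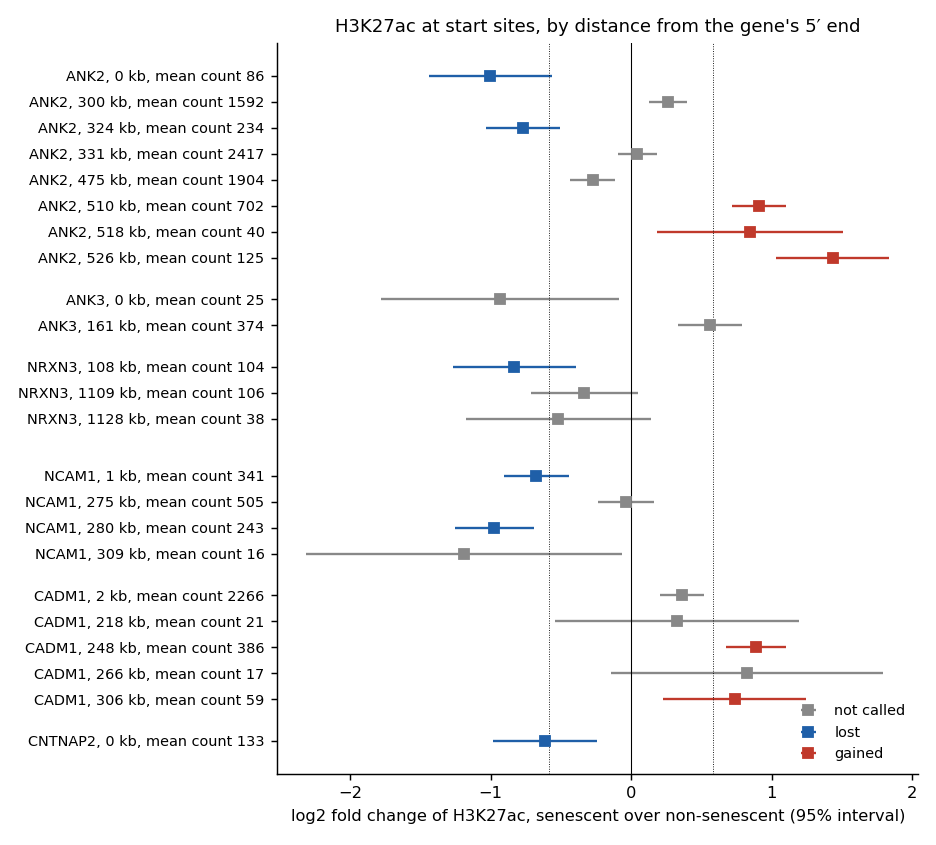
Log2 fold change of H3K27ac (senescent over non-senescent) with its 95% interval for all 23 start-site peaks, ordered by gene and by distance from the gene's 5′ end in kb, which each label gives with the mean count. Dotted lines mark a 1.5-fold change, blue is lost, red is gained and grey is not called. All 4 NCAM1 peaks lie below 0 and all 5 CADM1 peaks above it.

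ANK3 gained H3K27ac inside the gene, and its outermost start went the other way without passing the test. The gene spans chr10:60026298-60733490 on the minus strand, 707.2 kb, with 31 start sites in 13 groups, and 8 H3K27ac peaks. At the CpG-rich outermost start the H3K27ac peak was weak (chr10:60732957-60733730, mean count 24.8), with a log2 fold change of -0.93 ± 0.43 and an adjusted p of 0.0725. This window also holds the start of ANK3-DT, a divergent transcript, so the signal cannot be assigned to either gene. At the internal start, 160.5 kb downstream, H3K27ac was stronger (chr10:60571483-60573932, mean count 374) and had 0.56 ± 0.12, which is 1.47-fold (95% interval 1.26 to 1.73; adjusted p = 1.27e-05) and just inside the fold limit. When the median change of H3K27ac peaks of like GC content was subtracted, this peak had 0.60 and passed the limit. The peak at the outermost start then had -0.58 and was still not called. The gene-body peak with the highest count (chr10:60626514-60629762, mean count 519), between both starts, was gained at 0.81 ± 0.11 (adjusted p = 3.15e-13). A further peak upstream of the canonical transcript (chr10:60521518-60522625, mean count 48.8) was gained at 1.32 ± 0.30. The canonical start itself had no peak of either kind.

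NRXN3 lost H3K27ac at 4 of its 17 peaks and gained none. The gene spans chr14:78170373-79868291 on the plus strand, 1697.9 kb, and its canonical start had no H3K27ac peak. A start-site peak 108 kb downstream (chr14:78277148-78279174, exon 3, mean count 104) was lost, with a log2 fold change of -0.83 ± 0.22 (adjusted p = 9.35e-04). The internal start in intron 15 printed above, from which shorter transcripts begin, had a peak (chr14:79278489-79280374, mean count 106) with -0.33 ± 0.19 and an adjusted p of 0.168, a fold interval of 0.609 to 1.03. Another start-site peak (chr14:79298286-79299103) had -0.52 ± 0.34. In the gene body, the peak with the highest count (chr14:78720779-78723975, intron 8, mean count 297) was lost at -0.62 ± 0.15. The other lost gene-body peaks were chr14:78508218-78508717 at -1.37 ± 0.50 and chr14:79325029-79325910 at -0.81 ± 0.30, with mean counts of 17.9 and 42.6. The 11 remaining gene-body peaks ranged from log2 fold changes of -0.47 to 1.11, and none was called.

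NLGN1 was nearly bare of H3K27ac. In its 898.1 kb (chr3:173396284-174294372, plus strand) there was a single peak, in intron 4 (chr3:173938377-173938876), with a mean count of 19.5 and a log2 fold change of -0.11 ± 0.44. Its 0.111 peaks per 100 kb compare with a median of 1.41 over 826 protein-coding genes of 300 kb or more, of which 758 had more per 100 kb. It still held 12 CTCF peaks, at 1.34 per 100 kb against a median of 1.41 for these genes.

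The immunoglobulin genes NCAM1 and CADM1, both on chromosome 11, were the most densely marked of the 7, and their called start-site peaks were losses in NCAM1 and gains in CADM1. NCAM1 (chr11:112961275-113278436, plus strand) had 5.36 H3K27ac peaks per 100 kb and CADM1 (chr11:115169218-115504957, minus strand) had 7.74, which 55 and 21 of the 826 long genes exceeded. At the NCAM1 promoter the peak (chr11:112960975-112964195, exon 1, mean count 341) was lost at -0.67 ± 0.12 (adjusted p = 7.83e-08), a fold of 0.627 (95% interval 0.535 to 0.734). The start of the gene ENSG00000247416 is also in reach of this peak. An internal start-site peak (chr11:113239475-113242026, intron 14, mean count 243) was lost at -0.97 ± 0.14. The neighbouring, stronger one (chr11:113234703-113237819, exon 14, mean count 505) had -0.04 ± 0.10. The peak at the most 3′ start site (chr11:113270201-113270700) had a mean count of 16.4 and -1.19 ± 0.57, with an adjusted p of 0.0858. Among gene-body peaks, chr11:112988106-112988605 and chr11:113080746-113081839 were lost at -1.30 ± 0.43 and -0.85 ± 0.35, both with mean counts under 50. The gene-body peak with the highest count (chr11:112982235-112986611, mean count 710) had 0.14 ± 0.09.

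At the CADM1 promoter the H3K27ac peak (chr11:115500235-115506693, exon 1) had a mean count of 2266 and, at 351 counts per kb, was denser than any other H3K27ac peak of the set. Its log2 fold change was 0.36 ± 0.08, which is 1.28-fold (95% interval 1.15 to 1.43; adjusted p = 2.66e-05) and inside the fold limit. At an internal start in intron 1 (chr11:115254774-115259438, mean count 386) H3K27ac was gained at 0.89 ± 0.11 (adjusted p = 2.76e-14). It was also gained at a start near exon 9 (chr11:115197736-115199120, mean count 59.5), at 0.74 ± 0.26. The other start-site peaks, with mean counts of 21.4 and 17.1, had 0.32 ± 0.44 and 0.82 ± 0.49 and were not called. In the gene body the peak with the highest count (chr11:115314055-115320216, mean count 1218) had 0.51 ± 0.08, 1.42-fold and so not called. Called peaks there were a gain at chr11:115468433-115468932 (1.20 ± 0.50, mean count 16.0) and a loss at chr11:115407396-115411545 (-0.66 ± 0.13, mean count 270, adjusted p = 5.10e-06). Of the 21 gene-body peaks, 14 had log2 fold changes above 0, with a median of 0.32.

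CNTNAP2 lost H3K27ac at 10 of its 21 peaks, its promoter among them. The gene spans chr7:146116002-148420998 on the plus strand, 2305.0 kb. Of its 15 start-site groups, that of the canonical start alone had an H3K27ac peak (chr7:146115490-146117225, exon 1, mean count 133), which was lost at -0.62 ± 0.19 (adjusted p = 0.00423; fold 0.653, 95% interval 0.505 to 0.843). The 9 lost gene-body peaks had log2 fold changes from -1.05 to -0.65. The loss with the smallest adjusted p was in intron 8 (chr7:147255578-147259103, mean count 320), at -0.79 ± 0.12 (4.37e-10). In intron 1, chr7:146655547-146657680 had -0.84 ± 0.17, chr7:146709677-146710527 had -1.05 ± 0.33 and chr7:146763313-146764562 had -0.75 ± 0.23. In intron 3, chr7:146937488-146938382 had -1.04 ± 0.33. The peak with the highest count (chr7:146712492-146719397, mean count 596), which lies among the lost ones of intron 1, had -0.32 ± 0.09, a fold of 0.803. Of all 21 peaks 16 were below 0, with a median of -0.62. The gained peak, far downstream in intron 21 (chr7:148298847-148300181), had 0.61 ± 0.21 with an adjusted p of 0.0113.

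CTCF changed at few of these sites. Of 17 CTCF peaks at start sites, 1 was gained (5.88%) and 0 were lost, and of 79 in gene bodies 3 were gained (3.80%) and 0 were lost. An adjusted p was given for 82 of the 96 peaks, and the remaining 14, with mean counts of at most 17.3, stayed uncalled. Among peaks with an adjusted p, the gained ones came to 7.14% of 14 at start sites and 4.41% of 68 in gene bodies. The backgrounds, also among peaks with an adjusted p, were 1.27% gained and 5.34% lost at start sites of all genes, and 4.60% gained and 2.00% lost in the bodies of long protein-coding genes. Over all peaks they were 0.996% and 4.18% at start sites, and 3.29% and 1.43% in the bodies of long genes. The gained share in gene bodies was thus near its background on either count, and that at start sites rests on 1 peak. At an unadjusted Wald p under 0.05, 9 of the 96 peaks were higher and 3 were lower in senescent cells. The share of all CTCF peaks at this limit is not given here, so these counts cannot be read as particular to the set. ANK2, NRXN3, NLGN1, NCAM1 and CADM1 had no called CTCF peak among 12, 18, 12, 7 and 7, respectively.

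The gained CTCF peaks were in ANK3 and CNTNAP2. In ANK3 they were chr10:60032334-60033580 in intron 43 (mean count 99.7), at 0.69 ± 0.22 with an adjusted p of 0.0494, and chr10:60444221-60445416 upstream of the canonical transcript (mean count 94.3), at 0.70 ± 0.28 with an adjusted p of 0.149. In CNTNAP2 they were chr7:146118860-146119578 in intron 1, within the window of a start site (mean count 28.5), at 1.31 ± 0.42 with an adjusted p of 0.0521, and chr7:146736148-146737401 in intron 1 (mean count 76.9), at 0.97 ± 0.25 with an adjusted p of 0.0105. No H3K27ac peak overlapped any of these 4.

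At the CpG-rich ANK3 start CTCF (chr10:60732885-60734102, mean count 165) had -0.57 ± 0.18, a fold of 0.674 (95% interval 0.529 to 0.858) with an adjusted p of 0.0449, just inside the fold limit. The H3K27ac peak at this start lies inside this CTCF peak and also had a log2 fold change below 0, though it was not called. The NCAM1 promoter had the same pairing of signs, with CTCF at -0.52 ± 0.34 (chr11:112962890-112963868, mean count 45.3) beside the lost H3K27ac. At the CADM1 promoter, CTCF (chr11:115502951-115505601, mean count 394) had -0.18 ± 0.12 beside the higher H3K27ac. When the median change of peaks of like GC content was subtracted, CTCF had -0.33 at ANK3, -0.21 at NCAM1 and 0.07 at CADM1. The ANK3 CTCF change then no longer met the CTCF limit for the adjusted p. H3K27ac, less its own trend, had -0.58, -0.66 and 0.35 at these starts, respectively. The part of base composition in these pairings was not tested beyond this subtraction. In all, 17 H3K27ac peaks of the set overlapped 18 CTCF peaks, and none of these CTCF peaks was called. The signs of both marks were alike in some of these overlaps and unlike in others. The strongest gene-body CTCF peaks had 0.26 ± 0.12 in NRXN3 (chr14:78597385-78599280, mean count 381), -0.04 ± 0.13 in CNTNAP2 (chr7:148241615-148243211, mean count 273) and 0.39 ± 0.15 in CADM1 (chr11:115324084-115325506, mean count 242). In ANK2, ANK3, NCAM1 and NLGN1 they had 0.19 ± 0.16 (mean count 240), 0.34 ± 0.17 (209), 0.33 ± 0.16 (204) and -0.04 ± 0.28 (65.0).

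**Figure D4:**
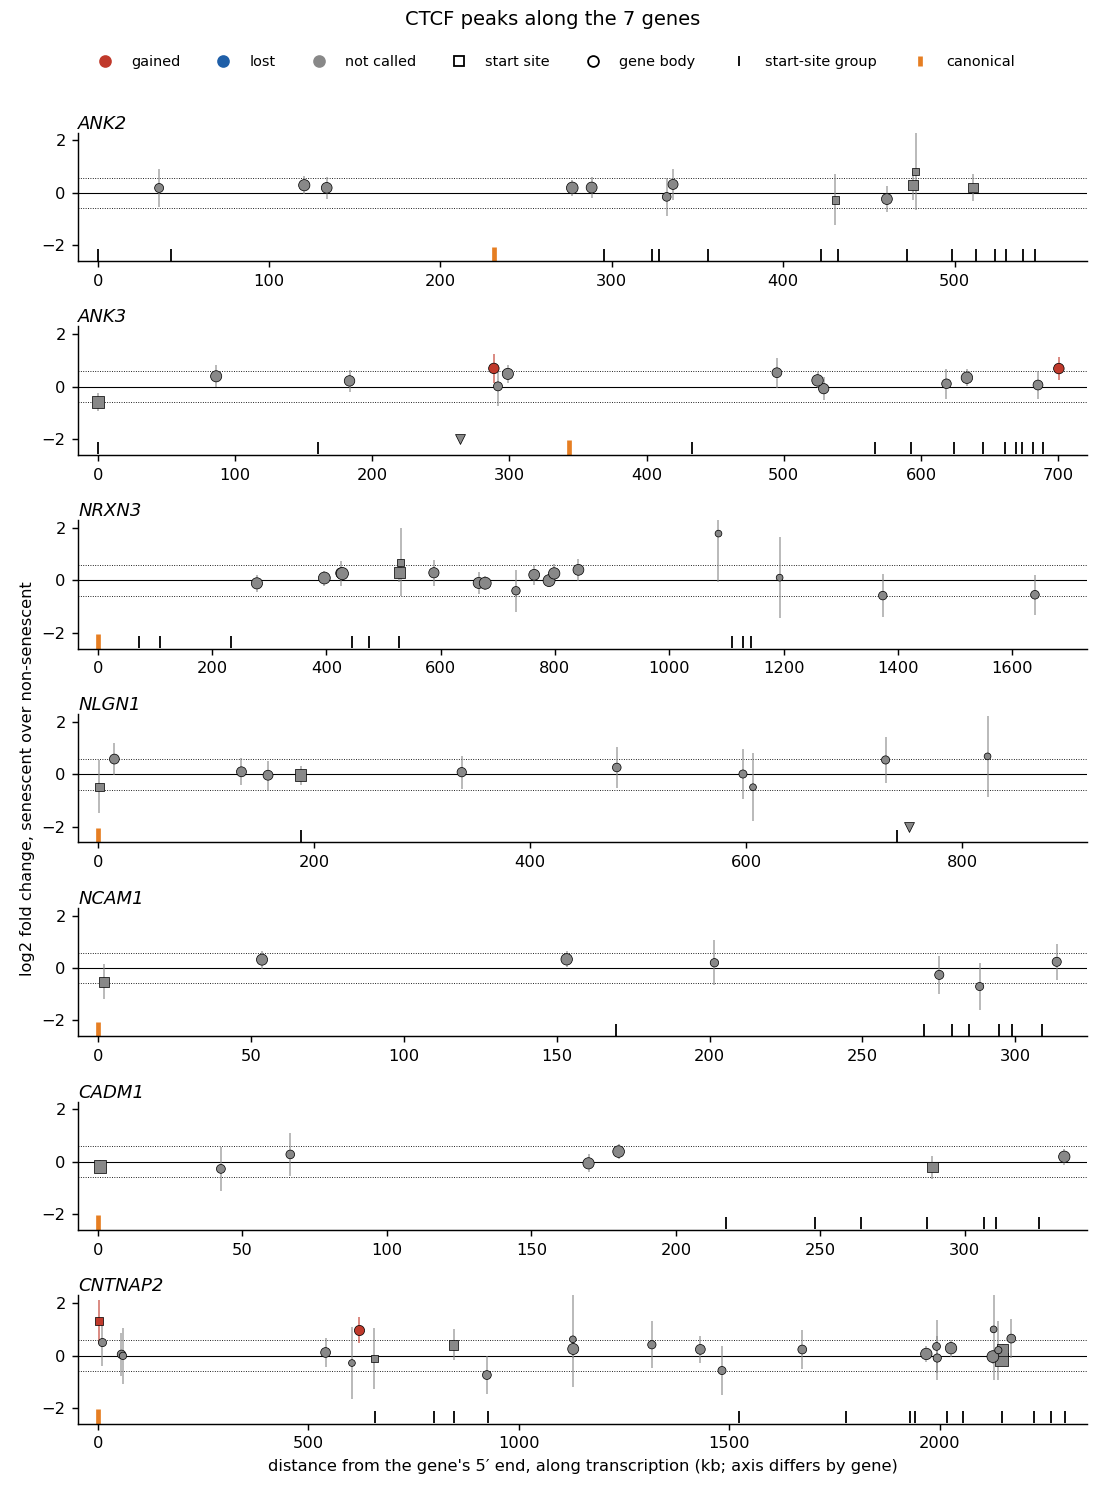
Log2 fold change of every CTCF peak (senescent over non-senescent, bars 95% interval) against distance from the gene's 5′ end in kb, drawn as for H3K27ac. Triangles at the edge mark the 2 peaks with log2 fold changes below the axis, and the 4 red symbols in ANK3 and CNTNAP2 are the gained peaks.

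The CTCF values of these genes were also read against base composition. Of the 96 CTCF peaks, 63 had a log2 fold change above 0 and the median was 0.20, against -0.01 over all CTCF peaks and 0.11 in the bodies of long genes. Their median GC content was 39.3%, against 46.4% over all CTCF peaks. Over all peaks, the median log2 fold change was 0.22 in the 10% with the lowest GC content but -0.31 in the 10% with the highest. When the median of peaks of like GC content was subtracted, the set's median was -0.01 and 47 of 96 peaks were above 0. Of the gained peaks, chr10:60032334-60033580 in ANK3 then had 0.60 and chr7:146736148-146737401 in CNTNAP2 had 0.71, both still called, while the others had 0.44 and 1.05 and were no longer called. The part of base composition in the gains was not tested beyond this subtraction. The lowest values of the set belong to peaks that carry little information. One in ANK3 (chr10:60469033-60469669), with 17.4% GC, had -3.59 ± 2.07, and the 434 CTCF peaks under 20% GC had a median SE of 2.03. The other, in NLGN1 (chr3:174147179-174147471), had a mean count of 5.53 and -3.84 ± 1.24 with no adjusted p.

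**Figure D5:**
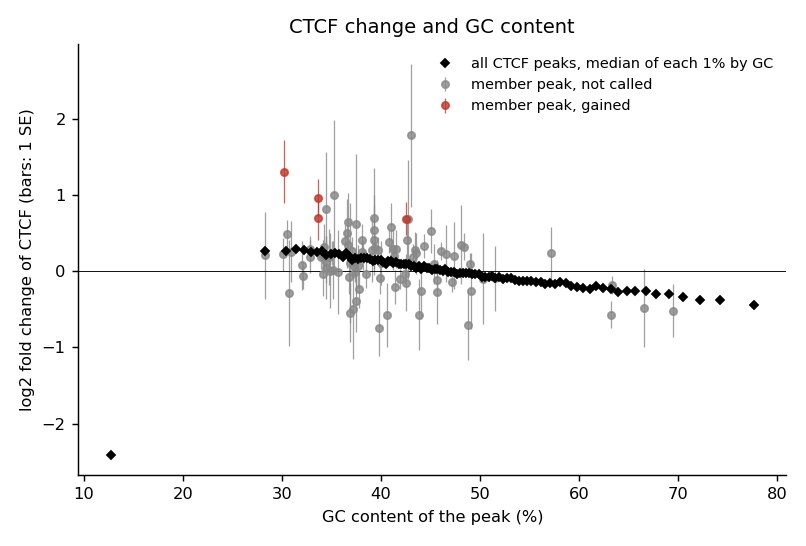
Log2 fold change of CTCF against GC content of the peak in percent, for the peaks of the 7 genes (circles, bars 1 SE, red gained) and for all CTCF peaks (black diamonds, median of each 1% of peaks ranked by GC content). The 2 member peaks beyond the axis are left out, and the black diamonds fall with GC content over most of its range.

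A CTCF core motif, searched as CCNNNAGNNGGC on both strands with no mismatch, was in 30 of the 96 peaks (31.3%), in 38.3% of all CTCF peaks and in 9.30% of regions of the same lengths shifted by 10 kb. Among the gained peaks, the one in intron 43 of ANK3 held a match and the other 3 held none of these exact letters. Its match is shown with 10 bases on each side beside those of the other 2 ANK3 peaks that held one, with the fixed letters in capitals.
ANK3 gained peak, chr10:60032955-60032986, minus strand: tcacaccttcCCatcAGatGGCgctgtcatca
ANK3 peak not called, chr10:60099901-60099932, plus strand: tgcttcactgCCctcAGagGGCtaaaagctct
ANK3 peak not called, chr10:60647395-60647426, minus strand: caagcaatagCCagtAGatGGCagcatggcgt
The peaks of the other matches had log2 fold changes of 0.34 ± 0.17 and 0.40 ± 0.21. The match in the gained peak and that of the last one lie on the strand of the gene, and the second lies on the opposite strand.

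The enhancer lists of both states, which rest on overlapping H3K27ac and H3K4me1 peaks outside promoters, placed 27 non-senescent and 27 senescent enhancers in the 7 genes, 18 of them shared. CADM1 held 5 listed in senescent cells alone and 2 in non-senescent cells alone, and CNTNAP2 held 0 and 4. ANK3 held 2 and 0, ANK2 1 and 2, NRXN3 0 and 1, NCAM1 1 and 0, and NLGN1 none. The full lists hold 14886 non-senescent and 13076 senescent enhancers. The share of the full lists found in 1 state alone is not given here, so these gene counts have no background. The 9 H3K27ac peaks that overlapped only senescent enhancers had log2 fold changes from 0.27 to 1.43, and 3 were gained. Of the 9 that overlapped only non-senescent enhancers, 5 were lost and 1 was gained, the intron 21 peak of CNTNAP2. These lists were made from the same H3K27ac libraries and are no independent evidence of direction. The list of senescence-specific Rb regions placed 1 region in intron 4 of NRXN3 (chr14:78378651-78378872) and 1 in intron 1 of CNTNAP2 (chr7:146462503-146462727). The nearest H3K27ac peaks of the set were 99.5 and 187 kb away.

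Other genes of these families had both gains and losses of H3K27ac at their start sites, at shares near those of all genes. Of 56 partners and relatives, 38 had an H3K27ac peak at a start site. In 6 of them peaks were gained only, in 6 lost only and in 2 both, which comes to 8 gained and 8 lost of 87 peaks (9.20% each), beside 6.53% gained and 11.0% lost at start sites of all genes. Among neurexins and their ligands 3 genes had gains and 0 had losses, and among ankyrin and spectrin partners 2 genes had losses only. Large gains were at DLG4 (PSD-95, a synaptic scaffold), at 1.28 ± 0.27, CBLN2 (a secreted neurexin ligand), at 1.27 ± 0.09, and MAGI2 (a scaffold that binds neuroligins), at 1.19 ± 0.24. At another start site MAGI2 had a loss, at -0.63 ± 0.24. Large losses were at CNTNAP1 (Caspr), at -1.49 ± 0.58, CADM2, at -1.27 ± 0.46, and NFASC (neurofascin, an ankyrin-binding adhesion molecule), at -1.10 ± 0.27. Several of these genes had stronger start-site peaks that were not called. Their strongest peaks had -0.03 ± 0.08 at CNTNAP1 (mean count 2130) and 0.36 ± 0.14 at NFASC (213). At DLG4 the strongest had 0.43 ± 0.08 (1134), and at MAGI2 0.18 ± 0.09 (697). The mean count of the CNTNAP1 and CADM2 peaks was low, at 13.3 and 21.6. When the GC trend was subtracted, both were no longer called (adjusted p = 0.0547 and 0.0771), nor were the loss at ANK1 and the gain at PALS2, and the relatives then had 8 gained and 5 lost peaks. CTCF was found at start sites of 46 of the 56 genes, with 1 gained peak at LRRTM4 (0.73 ± 0.30, adjusted p = 0.151) and 0 lost among 85, beside 1.27% and 5.34% of the tested peaks at start sites of all genes. At an unadjusted Wald p under 0.05, 6 of the 85 were higher and 2 were lower, again without the share of all CTCF peaks. Less the GC trend, this LRRTM4 gain was 0.56 and was no longer called.

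The label of the cells was checked against H3K27ac at start sites of marker genes. All 11 beta cell markers had a peak, with a median of 272 counts per kb of peak for the strongest of each gene. Of the neuronal markers 4 of 5 had one (median 155 counts per kb), SLC17A7 being the exception. None of the 2 fibroblast and 2 endothelial markers had one. Both leukocyte markers did, PTPRC with a mean count of 120 (85.8 per kb) and CD68 with 3544 (238 per kb). So did 2 of 3 exocrine and duct markers. CPA1 had a mean count of 1498 (298 per kb), and the strongest KRT19 peak had 913 (122 per kb). The part of these other marker signals in the results was not tested. As a check of direction, H3K27ac fell by 2.29 on the log2 scale at MKI67, a proliferation gene, and rose by 2.50 at CDKN1A, which encodes the cell cycle inhibitor p21.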

How the data were processed

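From 40 ChIP-seq libraries of EndoC-βH3, those for H3K27ac and CTCF were used, with 3 per state. The authors cut adapters (Trim Galore), mapped reads to hg38 (Bowtie2), called peaks over input (HOMER for H3K27ac, MACS2 for CTCF) and compared read counts per peak with DESeq2, as their methods state. The methods also say that CTCF peaks were kept only if they held the CTCF motif. This filter was not applied again here, so the CTCF calls may cover other peaks than those of the study. Versions were not given in the sources used here. The deposited mean signal of a peak is the mean of size-factor-normalised read counts. The deposited log2 fold change and SE are on the log2 scale. The Wald score that the authors deposited equals the fold change divided by its SE in every row. Each deposited p-value and adjusted p-value comes from the authors, and 11972 CTCF peaks have no adjusted p. The tables consist of this comparison and were therefore the measurement used. No model was refitted, since a count test planned for counts per library could not be made. Because size factors centre the table, a general rise or fall of a mark would not show. Depth per library was not analysed here, and precision is carried by the SE. The region lists that the authors deposited hold positions alone.

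Peaks were matched to GENCODE 44 by an overlap of at least 1 bp, using Python 3.11.15, pandas 2.3.3, numpy 2.4.6 and scipy 1.17.1. The files' 24 chromosome names match hg38, with 0 regions past a chromosome's end. Positions are 1-based. A fold interval is 2 to the log2 fold change plus or minus 1.96 SE. The GC trend was the median log2 fold change in 100 bins of peaks ranked by GC content, and the Wald p was recomputed and adjusted over all peaks after its subtraction, in functions tested on simulated data. Members, gene lists and tests were chosen with earlier results of these data known. Named were all start-site peaks with the highest count of their group, up to 5 called gene-body peaks per gene and factor with the smallest adjusted p, the gene-body peak with the highest count, and the 4 largest changes per direction among relatives with a called peak, of which 1 per direction is not reported here. The ANK2 peaks at exon 30 and before the first gained one, the intron 21 peak of CNTNAP2 and the ANK3 and NLGN1 CTCF peaks with the lowest values were added after their values were seen. So were the strongest start-site peaks of CNTNAP1, NFASC, DLG4 and MAGI2. The H3K4me1 and Rb libraries enter only through the region lists.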

Additional observations from a re-analysis of the deposited data

How the results depend on the processing

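No paired analysis was possible because the tables give 1 comparison per peak and no values per library, and for the same reason no replicate could be left out. The 5 gained and 6 lost H3K27ac peaks at start sites depended on which starts were counted. Gained peaks came to 3 with protein-coding starts, 0 with the canonical start and 3 when at least 50% of a peak had to lie inside the window. Lost peaks came to 2 with the canonical start. Gains were 8 with no fold limit, 1 at a fold above 2 and 3 at an adjusted p under 0.01, and losses were 1 at a fold above 2. The 5 gained H3K27ac peaks of gene bodies became 10 with the canonical start, whose smaller windows move start-site peaks into the bodies, 11 with no fold limit, 3 at a fold above 2, 2 among peaks with a mean of 50 counts or more and 2 at an adjusted p under 0.01. The 16 lost ones became 4 at a fold above 2 and 7 among peaks with a mean of 50 or more. The 1 gained CTCF start-site peak, in CNTNAP2, was no longer called (count 0) with a 1 kb window, protein-coding or canonical starts, a mean of 50 or more, the GC trend removed, an adjusted p under 0.05 or the core motif required. No fold limit gave 1 lost CTCF start-site peak, that of ANK3. The 3 gained CTCF peaks of gene bodies became 5 with no fold limit, 0 at a fold above 2 and 1 with the core motif. With p adjusted over all peaks, median centring or the GC trend removed, 1 CTCF peak of gene bodies was lost, the NLGN1 peak with a mean count of 5.53. For counts that changed, the cause beyond these definitions was not tested. Of 67 named peaks, median centring changed the call of 0, and removal of the GC trend ended 2 CTCF gains and added 1 H3K27ac gain, in ANK3. The 18 shared enhancers stayed 18 when 50% of the smaller region had to be shared. Mean counts under 50 gave wide intervals, so small changes at such peaks were not detectable.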

Other observations

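CTCF peaks of extreme base composition stood apart from the rest of the table. The 434 CTCF peaks under 20% GC (0.843% of all) had a median log2 fold change of -2.42 with a median SE of 2.03 at a median mean count of 51.4, and 9 of them had an unadjusted Wald p under 0.05, with 0 called. The ANK3 peak at 17.4% GC is one of them.

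The RefSeq table places a further ANK2 start at chr4:112705622, upstream of the GENCODE 44 gene, which the rule for the set did not reach. Over the whole tables, 1 H3K27ac peak lay within 2 kb of it (chr4:112705568-112706554, mean count 70.6), with a log2 fold change of -0.07 ± 0.23 and an adjusted Wald p of 0.834, and 0 CTCF peaks did. The start of the noncoding gene ENSG00000250046 on the other strand is also in reach of this peak.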
